A study of Mus musculus with 6 samples.

Results

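The 10 genes described here mark the endothelial cells that line the blood vessels of the liver. They are Lyve1, Stab1, Stab2, Clec4g, Kdr, Tek, Pecam1, Cdh5, Emcn and Eng, chosen by name with earlier results of these data known. Each is represented by the brightest probe that is annotated to that gene alone. All 10 had such a probe and passed the filter on low signal, among 10977 tested genes of 19938 with a probe. The samples were whole livers of C57Bl6/J mouse pups aged 1 day, whose RNA was hybridised to 6 Affymetrix arrays, with duplicates for each maternal diet. The diets were isocaloric and held 6 g% of oil, which was soybean oil for Control, flaxseed oil for ALA (alpha-linolenic acid, 31.6% in the labels) and coconut oil for SFA (saturated fatty acids, 48.51% in the labels). Sires shared the diet of their mates during mating. Each array carried a pool of 3 livers, and no label ties the duplicates to separate litters, so the p-values measure only the spread between these pools, which may be technical.

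Liver sinusoids are capillaries without a continuous basement membrane, and their endothelium is perforated and takes up waste from the blood. Stab1 and Stab2 encode the stabilins, large scavenger receptors, of which stabilin-2 clears hyaluronan. Lyve1 encodes a hyaluronan receptor, known from lymphatic vessels and from mature sinusoids, and Clec4g encodes a lectin of sinusoidal endothelium. The other 6 genes are shared by most blood vessels. Kdr encodes the main signalling receptor for vascular endothelial growth factor (VEGF), Tek the angiopoietin receptor TIE2, and Eng endoglin, a co-receptor for bone morphogenetic proteins (BMPs). Pecam1 and Cdh5 encode adhesion proteins of endothelial junctions, and Emcn encodes a sialomucin of the vessel surface.

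The arrays differed in ways that bear on every comparison. Duplicate arrays correlated with r from 0.977 to 0.986 across the tested genes, which are not independent replicates, while between diets r ran from 0.927 to 0.964. The log2 signal of the Y-linked gene Eif2s3y was 3.63 and 7.95 on Control replicates 1 and 2, 7.74 and 7.80 on ALA, and 4.11 and 3.79 on SFA. Male and female signal thus moved with the diets, and in the ALA comparisons the sex of the pups and the diet cannot be told apart. Xist, which is expressed in females, was at 10.67 and 8.34 on Control, 3.76 and 4.24 on ALA, and 9.46 and 9.51 on SFA. Control replicate 2 thus carried both signals, Control replicate 1 and the SFA pools Xist alone, and the ALA pools Y-linked signal alone. The albumin gene Alb lay between 12.58 and 12.75 on all 6 arrays. The highest signal on the arrays ran from 12.67 to 13.12, so Alb was near the top of the range and may show changes poorly.

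All 10 endothelial genes had a higher signal on both ALA arrays than on both Control arrays, and 6 of them passed the test. Lyve1, Stab2, Pecam1, Cdh5, Emcn and Eng rose, by 1.16 to 2.67 on the log2 scale, while Stab1, Clec4g, Kdr and Tek did not pass. On SFA, 9 of 10 were above both Control arrays and 6 passed: Lyve1, Stab2, Kdr, Pecam1, Cdh5 and Emcn. Lyve1 had the largest change of the 10 in both comparisons, and Stab1 was at its Control level on SFA. Both comparisons use the same 2 Control arrays.

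**Figure D1:**
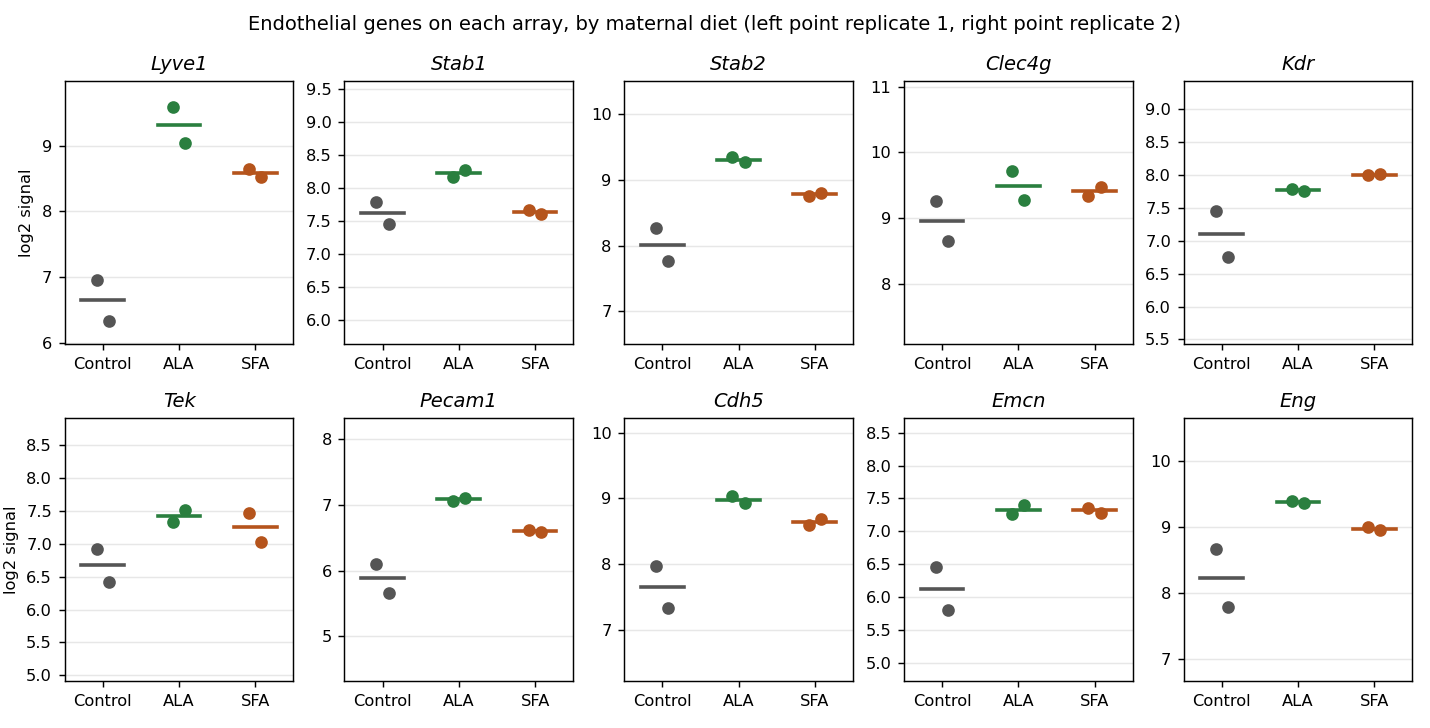
Log2 signal (vertical axis) of each of the 10 endothelial genes on the 6 arrays, by maternal diet (horizontal axis); points are single arrays, with replicate 1 left and replicate 2 right, and bars are the means of 2 arrays. Every panel spans the same range of 4 log2 units, Control replicate 1 lies above Control replicate 2 in every panel, and Lyve1 shows the widest separation, from 6.34 to 9.59.

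Among the scavenger and lectin genes of the sinusoid, Lyve1 (probe 10566934) was at a log2 signal of 6.95 and 6.34 on Control, 9.59 and 9.04 on ALA, and 8.64 and 8.52 on SFA. The 3 diets did not overlap, with Control lowest and ALA highest. Lyve1 rose 6.36-fold on ALA (log2 change 2.67, SE 0.25, limma adjusted p = 0.00396, n = 2 arrays per group) and 3.83-fold on SFA (log2 change 1.94, SE 0.25, limma adjusted p = 0.00652). The call on ALA was kept without each of the 6 arrays in turn, with changes from 2.36 to 2.97. On SFA it was lost without SFA replicate 1 (change 1.88, limma adjusted p = 0.0509).

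Stab2 (probe 10371506) was at 8.26 and 7.77 on Control, 9.34 and 9.27 on ALA, and 8.76 and 8.80 on SFA. Here too the diets were ordered Control, SFA, ALA without overlap. It rose 2.44-fold on ALA (log2 change 1.29, SE 0.17, limma adjusted p = 0.009) and 1.70-fold on SFA (log2 change 0.76, SE 0.17, limma adjusted p = 0.0339). The ALA call was kept without each array, whereas the SFA call was lost without Control replicate 2 (change 0.52), either ALA array (0.76), SFA replicate 1 (0.78) or SFA replicate 2 (0.75).

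Its paralog Stab1 (probe 10418506) was at 7.79 and 7.45 on Control, 8.17 and 8.28 on ALA, and 7.66 and 7.61 on SFA. The SFA arrays lay between the Control arrays, and the ALA arrays lay above all others. Its log2 change of 0.61 on ALA (SE 0.15, limma adjusted p = 0.0548) did not pass, and that on SFA was 0.02 with a 95% interval of -0.34 to 0.37.

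Clec4g (probe 10576774) was at 9.26 and 8.65 on Control, 9.71 and 9.27 on ALA, and 9.33 and 9.48 on SFA. Its groups were separated from Control only narrowly, because ALA replicate 2 was just above Control replicate 1. The changes were 0.53 on ALA (95% interval -0.02 to 1.09) and 0.45 on SFA (95% interval -0.10 to 1.00), and neither passed. A dimmer Clec4g probe, 10576772, stayed between 3.37 and 3.70 on all arrays and was not used.

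Of the vascular receptors, Kdr (probe 10530692) was at 7.46 and 6.76 on Control, 7.79 and 7.75 on ALA, and 8.0 and 8.01 on SFA. It was the only 1 of the 10 whose SFA arrays both lay above both ALA arrays. Kdr rose by 0.90 on SFA (SE 0.22, limma adjusted p = 0.0401), a call lost without Control replicate 2 (change 0.55), without either SFA array (0.89 or 0.90) or without either ALA array (0.90). Its change of 0.66 on ALA (SE 0.22, limma adjusted p = 0.119) did not pass, and was 1.01 without Control replicate 1, when it did, and 0.31 without Control replicate 2.

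Tek (probe 10505954) was at 6.92 and 6.42 on Control, 7.33 and 7.52 on ALA, and 7.47 and 7.03 on SFA. The SFA arrays were 0.44 apart, the widest SFA gap of the 10, and overlapped the ALA arrays. Its changes of 0.75 on ALA and 0.58 on SFA (SE 0.22 each) did not pass (limma adjusted p = 0.0815 and 0.119).

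Eng (probe 10471486) was at 8.66 and 7.79 on Control, 9.40 and 9.37 on ALA, and 9.0 and 8.95 on SFA. It had the widest gap of the 10 between the Control arrays, at 0.87, while its ALA and SFA duplicates were close together. Eng rose by 1.16 on ALA (SE 0.26, limma adjusted p = 0.0430), a call lost without Control replicate 2 (change 0.72), either ALA array or either SFA array. On SFA its change was 0.75 (limma adjusted p = 0.0998), and 1.19 without Control replicate 1, when it passed, and 0.31 without Control replicate 2.

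The junction and surface genes passed on both diets. Pecam1 (probe 10392221) was at 6.10 and 5.66 on Control, 7.06 and 7.11 on ALA, and 6.62 and 6.59 on SFA, so the 3 diets did not overlap. It rose by 1.20 on ALA (SE 0.16, limma adjusted p = 0.00933) and by 0.72 on SFA (SE 0.16, limma adjusted p = 0.0342). The ALA call was lost without ALA replicate 2 (limma adjusted p = 0.0531), and the SFA call without any 1 of the arrays other than Control replicate 1, with changes from 0.50 to 0.74.

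Cdh5 (probe 10574438) was at 7.97 and 7.34 on Control, 9.03 and 8.93 on ALA, and 8.60 and 8.69 on SFA, again without overlap between the diets. It rose by 1.33 on ALA (SE 0.21, limma adjusted p = 0.0146) and by 0.99 on SFA (SE 0.21, limma adjusted p = 0.0266). The ALA call was lost without ALA replicate 1 or 2, and the SFA call without Control replicate 2 (change 0.68), SFA replicate 1 or SFA replicate 2.

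Emcn (probe 10496359) was at 6.46 and 5.80 on Control, 7.26 and 7.40 on ALA, and 7.36 and 7.28 on SFA. Its ALA and SFA arrays overlapped and lay clear of Control. It rose by 1.20 on ALA (SE 0.21, limma adjusted p = 0.0223) and by 1.19 on SFA (SE 0.21, limma adjusted p = 0.0173). The calls were lost without Control replicate 2, when the changes were 0.87 and 0.86, and without an array of the diet concerned.

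**Figure D2:**
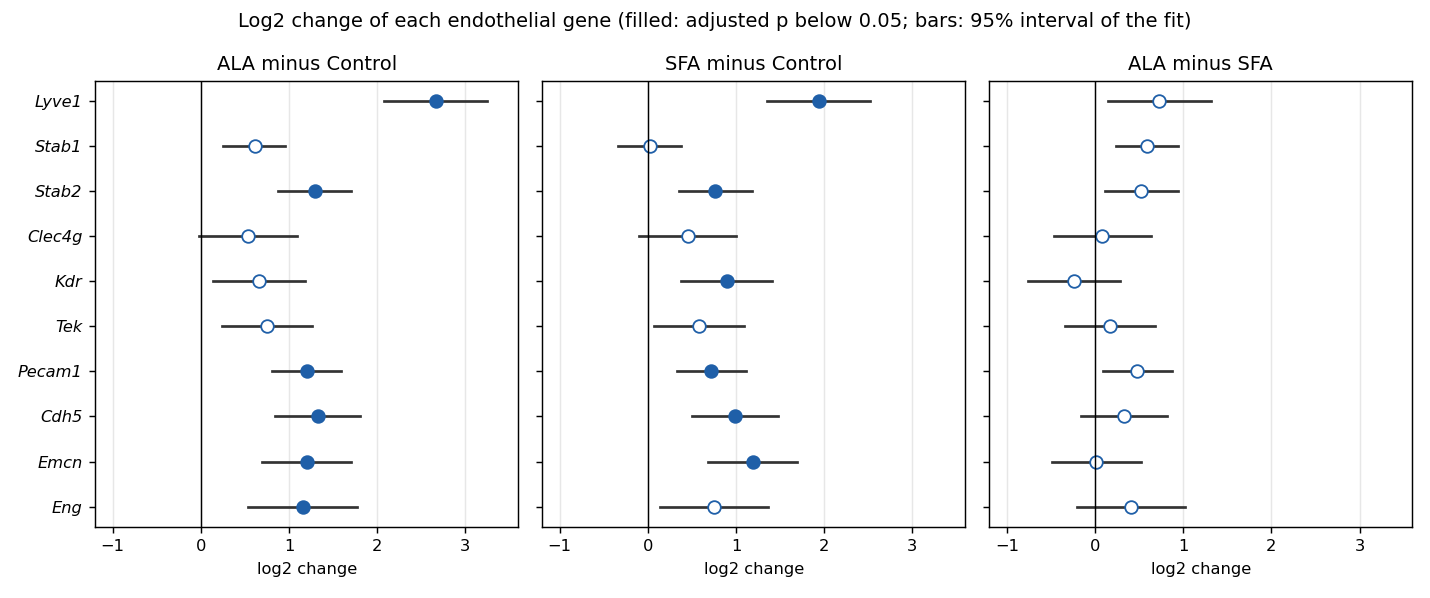
Log2 change (horizontal axis) of the 10 endothelial genes (vertical axis) in the 3 comparisons; circles are estimates from the limma fit, filled where the adjusted p is below 0.05, and bars are 95% intervals. There are 6 filled circles against Control on each diet and none between ALA and SFA, and Lyve1 stands furthest right in all 3 panels.

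The 10 genes and the lists that follow were chosen with earlier results of these data known. The shares over all genes are therefore set beside them as a description, not as independent support. On ALA 6 of 10 endothelial genes rose and 0 fell, where 5.11% of the tested genes rose and 2.82% fell (7.93% in either direction). The arrays lay above both Control arrays for 10 of 10, where 27% of the tested genes lay above and 28% below. Their median log2 change was 1.18, beside -0.01 over all tested genes. Leaving out ALA replicate 1 or 2 left 3 or 2 calls, and the median was 0.80 without Control replicate 2. On SFA 6 of 10 rose and 0 fell, where 6.62% of the tested genes rose and 7.15% fell (13.8% in either direction). The arrays lay above both Control arrays for 9 of 10, where 28.6% of the tested genes lay above and 35.7% below. The median was 0.76, beside -0.05 over all tested genes. Without Control replicate 2 only Lyve1 was called on SFA and the median was 0.51. The number was 3 without either ALA array, 1 without SFA replicate 2, which was again Lyve1, and 0 without SFA replicate 1. With the arrays of the contrast alone it was 3, Lyve1, Cdh5 and Emcn. Since the pools are of whole liver, fewer endothelial cells in the Control pools and less RNA of these genes per cell there cannot be told apart.

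The 2 Control pools were apart in these genes. Control replicate 1 was higher than Control replicate 2 in 10 of 10, by 0.34 to 0.87 with a median of 0.61, although the median gap over all tested genes was 0.01. Between the duplicates of ALA and of SFA the median gap of the 10 was 0.04 each. Set against Control replicate 1 alone, which like the SFA pools lacked Y-linked signal, SFA gave changes of 1.63 for Lyve1, 0.86 for Emcn, 0.68 for Cdh5 and -0.16 for Stab1, of which Lyve1 passed (limma adjusted p = 0.0348), the lone Control array being assumed to vary like the other groups. Set against Control replicate 2 alone, which shared the Y-linked signal of the ALA pools but not their low Xist, ALA gave a median change of 1.47. Against Control replicate 1 alone the ALA median was 0.80. The SFA medians were 1.10 against Control replicate 2 and 0.51 against Control replicate 1. Control replicate 2 was the lower Control array in all 10, so changes against it are larger by construction. It carried both sex signals, so sex was not matched.

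Between the enriched diets 0 of the 10 endothelial genes were called by limma, where 1.53% of all tested genes were, 1.09% higher on ALA and 0.437% lower. By limma, 4 of the 10 had an unadjusted p below 0.05: Lyve1, Stab1, Stab2 and Pecam1, all higher on ALA. Both ALA arrays lay above both SFA arrays for 6 of 10, where 31.4% of the tested genes did so. They were these 4 with Cdh5 and Eng, named after their values were seen. Kdr was the 1 gene whose ALA arrays lay below, where 24.4% of the tested genes did so. The log2 difference, ALA minus SFA, was 0.73 for Lyve1 (95% interval 0.15 to 1.32, limma adjusted p = 0.152) and 0.59 for Stab1 (95% interval 0.24 to 0.94, limma adjusted p = 0.0928). For Emcn it was 0.01 with a 95% interval of -0.49 to 0.52, and for Kdr -0.24 with -0.76 to 0.28, so differences of either sign are within the intervals. The median over the 10 was 0.37, and the all-gene median of 0.04 became -0.07 after 75th percentile centring, when the median of the 10 was 0.26.

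Because most of the 10 moved together, each was also set against the mean of the other 9 on the same array, which removes the shared shift and any scaling of whole arrays. The level of this difference depends on the probes, so only its change between diets is read. For every gene but Lyve1, the mean of the other 9 includes Lyve1, whose larger rise lowers the difference on both diets. Lower values of these genes on a diet come partly from it, and the smallest of them may come wholly from it. The gap between the Control arrays, up to 0.87 before, was then at most 0.32. For Lyve1 the difference from the other 9 was -0.71 and -0.73 on Control, 1.24 and 0.72 on ALA, and 0.55 and 0.47 on SFA. Lyve1 thus exceeded the shift of the others by 1.70 on ALA and by 1.23 on SFA. For Stab1 it was 0.23 and 0.50 on Control, -0.33 and -0.12 on ALA, and -0.54 and -0.54 on SFA, lower than Control on both diets. Clec4g, with changes of -0.67 on ALA and -0.42 on SFA, and Tek, with -0.43 and -0.28, were also below both Control arrays on both diets. For Tek on SFA this was narrow, with -0.75 and -1.18 beside -0.74 and -0.64 on Control. Emcn changed by 0.07 on ALA and by 0.40 on SFA, where both arrays were above Control. For Kdr it was -0.14 and -0.27 on Control, -0.75 and -0.72 on ALA, and -0.16 and -0.10 on SFA. Against this mean, with Lyve1 included, Kdr lagged on ALA and kept pace on SFA. The diet means of Stab2, Pecam1, Cdh5 and Eng stayed within 0.21 of their Control mean. Even so, Cdh5 was above both Control arrays on both diets and Stab2 on ALA. Pecam1 was narrowly below them on SFA, at -1.69 and -1.68 beside -1.64 and -1.48 on Control. These differences are a description and were not tested.

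**Figure D3:**
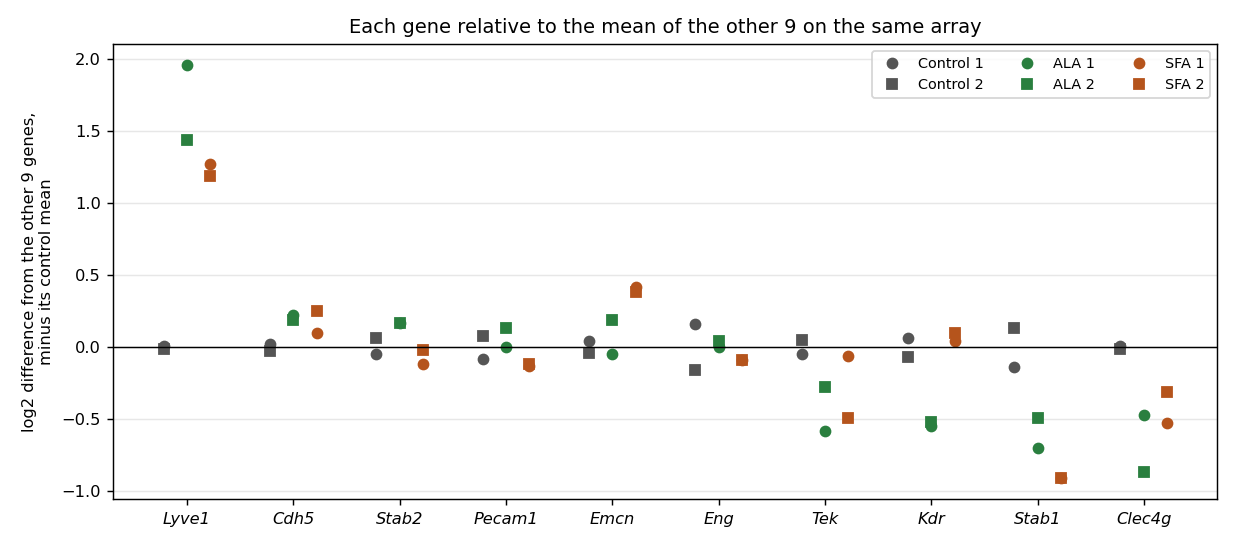
Log2 signal of each endothelial gene minus the mean of the other 9 on the same array, set to 0 at its Control mean (vertical axis), for the 10 genes (horizontal axis); circles are replicate 1, squares are replicate 2, and colours are the diets. Lyve1 lies well above 0 on both diets, and Stab1 and Clec4g lie below their Control arrays on both. Kdr and Tek do so on ALA, and Emcn lies above its Control arrays on SFA. By smaller amounts, Cdh5 lies above its Control arrays on both diets and Stab2 does so on ALA. Pecam1 and Tek lie below theirs on SFA, where SFA replicate 1 of Tek is only just below.

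Promoter windows were examined because these genes moved largely together, and endothelial genes are widely known to be controlled by ETS-family transcription factors. RefSeq windows from 250 bases before to 50 bases after the start were found for 7 of the 10 genes, on GRCm38.p6. The windows below are those of the stabilin paralogs, which differed on SFA, and of Emcn and Eng. Capitals mark AGGAAG or its reverse complement CTTCCT, a form of the ETS core.
Stab1, chr14:31168592-31168891, minus strand: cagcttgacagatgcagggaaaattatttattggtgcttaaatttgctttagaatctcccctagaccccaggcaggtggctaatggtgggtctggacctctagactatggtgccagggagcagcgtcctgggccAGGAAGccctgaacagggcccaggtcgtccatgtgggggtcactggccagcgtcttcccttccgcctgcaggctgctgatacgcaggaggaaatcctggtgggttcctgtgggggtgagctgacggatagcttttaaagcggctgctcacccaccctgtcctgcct
Stab2, chr10:87007893-87008192, minus strand: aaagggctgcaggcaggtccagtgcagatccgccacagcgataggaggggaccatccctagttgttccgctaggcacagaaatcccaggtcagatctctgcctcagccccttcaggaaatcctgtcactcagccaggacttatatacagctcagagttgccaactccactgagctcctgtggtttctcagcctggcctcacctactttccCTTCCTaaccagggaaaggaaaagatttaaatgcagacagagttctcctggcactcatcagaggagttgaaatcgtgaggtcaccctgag
Emcn, chr3:137340828-137341127, plus strand: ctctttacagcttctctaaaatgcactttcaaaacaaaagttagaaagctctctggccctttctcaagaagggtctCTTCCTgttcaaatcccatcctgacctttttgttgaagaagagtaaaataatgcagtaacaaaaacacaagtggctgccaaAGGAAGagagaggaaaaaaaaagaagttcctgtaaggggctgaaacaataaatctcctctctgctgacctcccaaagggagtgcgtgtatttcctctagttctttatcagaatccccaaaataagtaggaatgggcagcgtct
Eng, chr2:32646345-32646644, plus strand: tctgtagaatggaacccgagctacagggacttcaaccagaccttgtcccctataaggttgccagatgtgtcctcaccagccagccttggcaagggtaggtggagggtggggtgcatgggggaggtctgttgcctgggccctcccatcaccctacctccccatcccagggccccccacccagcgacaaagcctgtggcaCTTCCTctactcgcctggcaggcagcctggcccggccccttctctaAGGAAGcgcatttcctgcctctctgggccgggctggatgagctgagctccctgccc
This motif, searched on both strands, occurred in the windows of 5 of the 7 genes, Stab1, Stab2, Clec4g, Emcn and Eng, and in 35.4% of all 32851 windows in the table. The Kdr and Tek windows did not hold these letters. The GATA-type AGATAA occurred in the Tek window alone and in 11.2% of all windows, and the TATA-type TATAAA in the Clec4g window alone and in 13.6% of all windows. The FOX-type TGTTTA occurred in none of the 7 and in 13.4% of all windows. Stab1, with a change of 0.02 on SFA, and Stab2, with 0.76, each held 1 ETS-type match.

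Other genes of sinusoidal endothelium were more mixed than the 10. Of 22 tested, 6 rose and 0 fell on ALA with a median of 0.63, and 6 rose and 0 fell on SFA with a median of 0.26. Over all tested genes 5.11% rose and 2.82% fell on ALA, and 6.62% rose and 7.15% fell on SFA. Fabp4, a fatty acid binding protein gene of capillary endothelium that macrophages also express, rose by 2.19 on ALA and 2.38 on SFA. Oit3 rose by 1.54 and 0.94, and Gpr182, a G protein-coupled receptor gene of endothelium, by 1.21 and 0.99. Mrc1, the mannose receptor gene shared with macrophages, rose by 1.06 and 0.73, and the lysosomal protease gene Lgmn by 0.79 and 0.62. The membrane trafficking gene Ehd3 rose by 1.03 on SFA and was at 0.99 on ALA without passing. Fcgr2b, the inhibitory antibody receptor gene of sinusoids, was at 0.61 on ALA and 0.22 on SFA and did not pass. Fabp4 on both diets and Gpr182 on ALA kept their calls without each array. On SFA the Gpr182 call was lost without SFA replicate 1, and the Oit3, Ehd3, Mrc1 and Lgmn calls without either SFA array or Control replicate 2. Those of Oit3 and Ehd3 were also lost without either ALA array, and that of Lgmn without Control replicate 1. On ALA the Oit3 call was lost without either ALA array, and the Mrc1 and Lgmn calls without ALA replicate 1 or Control replicate 2. The ALA call of Lgmn was also lost without Control replicate 1. Without Control replicate 2 the numbers called in the list were 3 on ALA (median 0.34) and 2 on SFA (median 0.08). They were 2 on ALA without ALA replicate 1 and 1 and 2 on SFA without SFA replicates 1 and 2, and the medians were 0.91 on ALA and 0.58 on SFA without Control replicate 1.

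Genes shared by blood vessels in general rose more often than they fell. Of 35 tested, 13 rose and 1 fell on ALA, with a median of 0.68, and 12 rose and 1 fell on SFA, with a median of 0.45. The shares of all tested genes were 5.11% higher and 2.82% lower on ALA, and 6.62% higher and 7.15% lower on SFA. Cd93, a surface glycoprotein gene of endothelium, rose by 1.74 on ALA and 1.88 on SFA. The leukocyte adhesion gene Vcam1 rose by 1.68 and 1.33, the progenitor and vessel marker Cd34 by 1.08 and 0.96, and Calcrl, which encodes the adrenomedullin receptor, by 1.06 and 0.89. Nrp1, a co-receptor gene for VEGF, was the gene that fell, with changes of -1.24 and -1.23. Cd93 on both diets and Calcrl on ALA kept their calls without each array. The SFA calls of Vcam1, Cd34 and Calcrl were lost without either SFA array, those of Cd34 and Calcrl also without Control replicate 2. The ALA call of Vcam1 was lost without ALA replicate 2, and the ALA call of Cd34 without any array other than Control replicate 1. Over the list, 4 rose on ALA without Control replicate 2, 3 or 2 without ALA replicate 1 or 2, and 7 without either SFA array. The number that rose on SFA was 3 without Control replicate 2, 1 without SFA replicate 1 and 3 without SFA replicate 2. Without Control replicate 2 the SFA median was 0.28, and without Control replicate 1 it was 0.70. The Nrp1 calls were lost without either Control array and without either SFA array, and on ALA also without ALA replicate 2. Between the diets 1 of the 35, Rasip1, named after its value was seen, was higher on ALA, by 0.80, and this call was lost without each of the 6 arrays in turn.

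The receptors' ligands and partners did not move as a group, with a median of 0.00 on both diets over 33 tested genes. In the VEGF system, the receptor gene Flt1, which can act as a decoy for VEGF, had a log2 signal of 6.20 and 5.28 on Control, 7.35 and 7.16 on ALA, and 7.30 and 7.19 on SFA. It rose by 1.51 on both diets (SE 0.28, limma adjusted p = 0.0242 on ALA and 0.0183 on SFA), and both calls were lost without either SFA array, the ALA call also without either ALA array. The ligand gene Vegfa was at 9.17 and 9.02 on Control, 9.09 and 9.0 on ALA, and 8.33 and 8.30 on SFA, so the SFA arrays stood apart below the rest. Vegfa fell by 0.79 on SFA (SE 0.12, limma adjusted p = 0.0116) and was at -0.05 on ALA. Its call on SFA was lost without Control replicate 1 or either SFA array. The difference between the diets was 0.73 (SE 0.12, limma adjusted p = 0.0431), a call lost without each of the 6 arrays and under the 3 other scalings of the arrays. In the liver Vegfa is made largely by hepatocytes.

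In the angiopoietin system the ligand genes Angpt1 and Angpt2 had mean log2 signals below the minimum of 5 and were not tested, with values between 3.07 and 3.48 and between 4.16 and 4.70. Tie1, which encodes the partner of the Tek product, rose by 0.92 on ALA and 0.71 on SFA. Both Tie1 calls were lost without either Control array or either array of the diet concerned.

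In the BMP and transforming growth factor system that endoglin serves, Gdf2, which encodes the circulating ligand BMP9, was at 7.03 and 6.56 on Control, 7.91 and 7.71 on ALA, and 7.81 and 7.90 on SFA. Both diets were clear of Control and overlapped each other. Gdf2 rose by 1.02 and 1.06 (SE 0.18, limma adjusted p = 0.0218 and 0.0145), calls lost without Control replicate 2 or an array of the diet concerned, and Tgfb1 rose by 1.12 and 1.27. Acvrl1, which encodes the receptor that binds BMP9 with endoglin, was at -0.31 and 0.09 and did not pass. The list held 5 genes that BMP signalling is known to induce, Id1, Id2, Id3, Smad6 and Smad7, of which 1 fell on ALA and 3 fell on SFA. This grouping was not fixed beforehand. Over all tested genes 2.82% fell on ALA and 7.15% on SFA. Hey1, another gene of the list, was at 0.81 on ALA and 0.61 on SFA, above both Control arrays on both diets, and did not pass. The pools are of whole liver. Whether BMP signalling changed, and which cells these changes came from, was not tested. Id2 was at 10.96 and 10.94 on Control, 9.39 and 9.04 on ALA, and 9.38 and 9.25 on SFA, and fell by 1.74 on ALA and 1.64 on SFA, calls kept without each array. Id3 fell by 1.27 on SFA and the inhibitory Smad7 fell by 1.12, while on ALA they were at -0.77 and -0.96 and did not pass. Smad9, a BMP signal transducer gene, fell by 1.5 on SFA and was at -0.77 on ALA without passing. The Id3 call was lost without Control replicate 1 or SFA replicate 2, and the Smad7 call was kept only without Control replicate 2. Id1 was at -0.40 and -0.25, Smad6 was at -0.01 and -0.13, and neither passed. In all, 4 of the 33 rose and 2 fell on ALA, and 4 rose and 5 fell on SFA. Among all tested genes 5.11% rose and 2.82% fell on ALA, and 6.62% rose and 7.15% fell on SFA. The others called, named after their values were seen, were Cd44 and Epas1, higher on both diets, and Vegfb, lower on ALA. The Vegfb call was lost without each array in turn, and those of Cd44 and Epas1 without either Control array. The SFA calls of Cd44 and Epas1 were also lost without either SFA array, and the ALA call of Epas1 without ALA replicate 1. Without Control replicate 1 the counts were 2 and 1 on ALA and 2 and 2 on SFA, and without Control replicate 2 they were 1 and 2 on ALA and 1 and 5 on SFA. On ALA they were 2 and 1 without its replicate 1 and 3 and 1 without its replicate 2. On SFA they were 1 and 3 without its replicate 1 and 1 and 2 without its replicate 2. Leaving out an SFA array made the ALA counts 5 and 1.

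**Figure D4:**
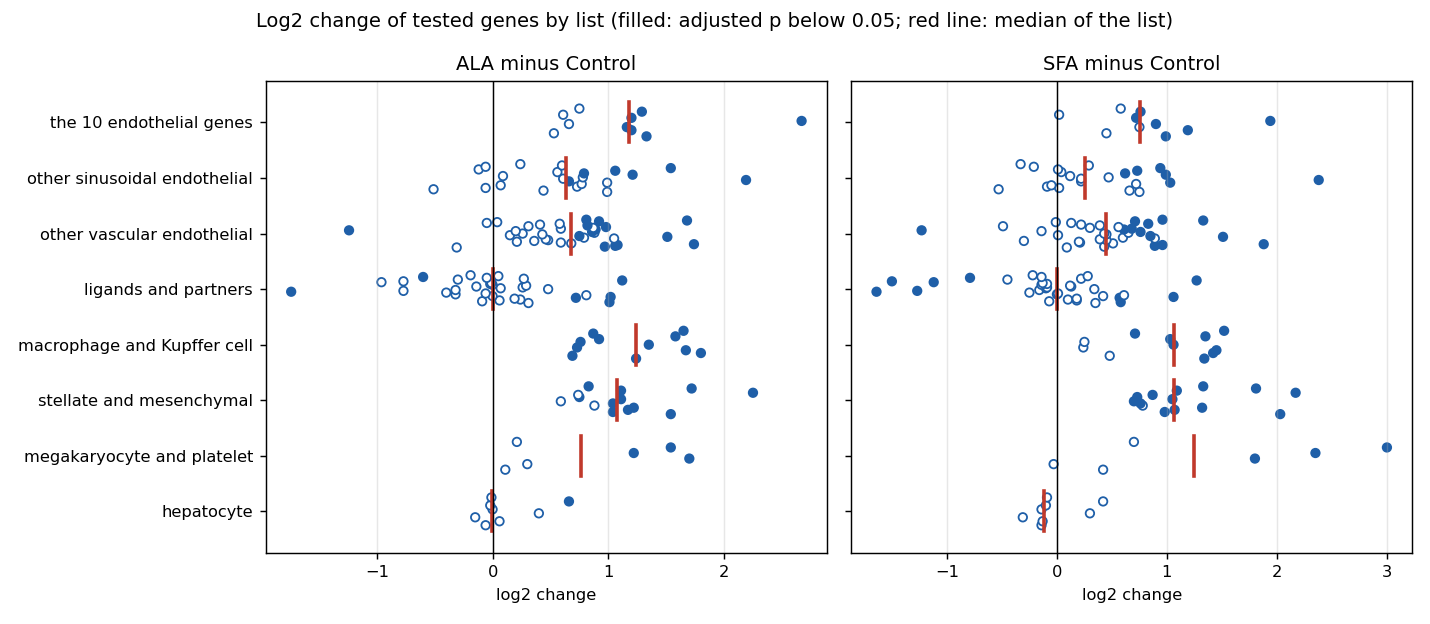
Log2 change against Control (horizontal axis) of the tested genes of 8 lists (vertical axis), on ALA (left) and SFA (right); each circle is a gene, filled where the adjusted p is below 0.05, and red lines are list medians. The endothelial, macrophage and stellate lists lie mostly right of 0, and the ligands and hepatocyte markers centre on it.

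Markers of other cells moved with the endothelial genes, and their part in the result was not tested. Beside the counts that follow, 5.11% of all tested genes rose on ALA and 6.62% on SFA. Lyve1, Stab1 and Mrc1 are also expressed by some macrophages. All 11 tested macrophage and Kupffer cell markers rose on ALA (median 1.24) and 8 of 11 on SFA (median 1.06), and the mean log2 signal of the list was 7.11 and 7.01 on Control, 8.37 and 7.99 on ALA, and 7.96 and 7.90 on SFA. The Control arrays differed by less in this list than in the endothelial genes. Without Control replicate 2 the numbers called were 4 and 2, and without Control replicate 1 they were 5 and 6. On ALA it was 5 without ALA replicate 1. It was 7 on ALA without ALA replicate 2 or either SFA array, and 1 and 3 on SFA without SFA replicates 1 and 2. Of 14 stellate and mesenchymal markers 11 rose on ALA (median 1.07) and 13 on SFA (median 1.06), with a mean of 6.39 and 6.07 on Control, 7.33 and 7.42 on ALA, and 7.44 and 7.41 on SFA. These numbers were 4 and 5 without Control replicate 2, 7 and 10 without Control replicate 1, 7 on ALA without its replicate 1 or an SFA array, 6 on ALA without its replicate 2, and 5 on SFA without either SFA array.

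Platelets and megakaryocytes carry Pecam1, and of 6 such markers 3 rose on both diets, Itgb3, Pf4 and Ppbp, named after their values were seen. The mean of that list was 5.46 and 5.54 on Control, 6.48 and 6.22 on ALA, and 6.89 and 6.86 on SFA. For this and the lists below, 5.11% of all tested genes rose and 2.82% fell on ALA, and 6.62% and 7.15% on SFA. Where a list is this small, 1 call cannot be set apart from these shares. Lymphatic endothelium also expresses Lyve1, and of 5 tested lymphatic markers 2 rose on both diets, with medians of 0.78 on ALA and 0.47 on SFA. These were Lyve1 itself and Reln, which stellate cells also express and which rose by 1.11 and 1.09. The number was 1 on both diets without Control replicate 2, 1 on ALA without either ALA array, and 0 and 1 on SFA without its replicates 1 and 2. Flt4, a receptor gene that sinusoidal endothelium shares, was at 0.78 and 0.47, above both Control arrays on both diets, and did not pass. Pdpn was between 4.8 and 5.27 on all arrays and changed by -0.17 and -0.26, Prox1, which hepatocytes also express, changed by -0.19 and -0.39, and neither passed. Mmrn1, between 3.04 and 3.83, was below the minimum. Of 8 markers of dividing cells 6 rose on ALA and 7 on SFA, and their mean was 4.8 and 4.84 on Control, 6.01 and 7.34 on ALA, and 7.50 and 7.41 on SFA. Without either Control array 1 rose on ALA, and without SFA replicate 1 it was 3 on each diet. On SFA it was 5 or 4 without Control replicate 1 or 2 and 4 without SFA replicate 2, and on ALA 3 without SFA replicate 2. ALA replicate 1 was the lower ALA array for these markers and the higher for Lyve1. Of 8 hepatocyte markers 1, the amino acid catabolism gene Tat, rose on ALA by 0.66, a call lost without each array in turn, and 0 fell. On SFA 0 were called by limma, and the 8 lay between -0.31 and 0.42. The SFA arrays lay below both Control arrays for 6 of them and above for 2. Over all tested genes 35.7% lay below and 28.6% above. The mean of these 8 was 11.92 to 12.09 on the arrays, near the top of the signal range, where changes may show poorly. Of 6 erythroid markers 2 rose on each diet and 1, Ermap, named after its value was seen, fell by 1.10 on SFA. Of 6 granulocyte markers 1 rose on ALA and 2 on SFA, and of 3 bile duct markers 1 rose on ALA and 0 on SFA. Of 4 lymphoid markers 0 were called by limma on either diet. Each of these counts moved by at most 1 when an array was left out.

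Among all other tested genes with a common name, the 8 whose profile over the 6 arrays lay closest to the mean profile of the endothelial genes were Sult1d1, Msn, Kcnk6, Hspg2, Bgn, Mrc1, Tfpi and Mylip. The measure was the root mean square difference between profiles centred on their own means, and it ran from 0.04 for Sult1d1 to 0.11 for Mylip. Among the members it was 0.09 for Pecam1, Cdh5 and Eng and 0.66 for Lyve1. Sult1d1, a sulfotransferase gene, was at 10.19 and 9.59 on Control, 11.16 and 10.95 on ALA, and 10.76 and 10.67 on SFA. Hspg2, which encodes the basement membrane proteoglycan perlecan, was at 7.08 and 6.52, 7.82 and 7.74, and 7.60 and 7.64. Tfpi, which encodes an inhibitor of coagulation made by endothelium, was at 5.84 and 5.40, 6.68 and 6.63, and 6.65 and 6.39. With 6 arrays in 3 diets, many genes share such a profile, and the likeness is a description.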

How the data were processed

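Total RNA from pooled livers was labelled with biotin and hybridised to 6 Affymetrix arrays, per the labels. The authors made the deposited log2 values, which span 1.98 to 13.1, with RMA and Partek 6.6, per the submitters' processing notes. That they are log2 was read from this range, and further settings are not given in the sources used here. Of 35556 probes, 21789 had 1 gene symbol in the platform annotation, and the brightest stood for each of 19938 genes. Genes with a mean log2 signal of at least 5 were tested.

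Diet means were estimated from the 6 arrays together with limma 3.58.1 in R 4.3.3, leaving 3 residual degrees of freedom, and moderated by eBayes. P-values are two-sided and adjusted by Benjamini-Hochberg over 10977 genes, and an adjusted p below 0.05 is called a rise or a fall. Folds are 2 to the power of the difference of group means. The number of arrays limits the precision. The procedure was tested on simulated data. The endothelial genes and all lists were chosen with earlier results of these data known. Outside the 10 genes, those named by rule are up to 6 called genes per related list with the largest change against Control, 8 genes fixed by name and the 8 closest profiles. The other genes named, such as those from the cell marker lists and the last section, fall outside this rule. Their naming was not fixed beforehand. Normalization, filter, probe choice, samples fitted, moderation, a replicate block and each array left out were the alternatives.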

Additional observations from a re-analysis of the deposited data

How the results depend on the processing

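The number of the 10 endothelial genes called on ALA, 6, was between 5 and 7 under 9 other settings and between 2 and 7 without each array, and their median log2 change, 1.18, lay between 0.80 and 1.47 without each array. On SFA the number, 6, was 3 when the 4 arrays of the contrast were fitted alone and between 0 and 7 without each array, and the median, 0.76, lay between 0.51 and 1.10. Between the diets 0 were called under all 15 alternatives. Over all genes, 871 were called on ALA, 448 with the 4 arrays of the contrast alone and 267 to 475 without each array. On SFA 1512 were called, 727 higher and 785 lower, and 245 to 1428 without each array; the split was 1004 and 515 after 75th percentile centring, 962 and 528 after quantile normalization and 952 and 585 after cyclic loess. Between ALA and SFA 168 were called, 120 higher on ALA and 48 lower. That number was 100 after 75th percentile centring (42 and 58), 68 after quantile normalization (34 and 34), 76 after cyclic loess (42 and 34), 32 with no filter, 293 with a minimum of 6, 421 with trend and robust moderation, 11 with the 4 arrays of the contrast alone, 0 with a replicate block and 0 to 36 without each array. Fewer arrays leave fewer degrees of freedom, and the cause of the other differences was not tested.

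Sign changes were confined to values near 0. Stab1 on SFA was -0.16 without Control replicate 2 and -0.01 without SFA replicate 1, in a range of -0.16 to 0.19 without each array. For ALA minus SFA, Emcn was -0.10 after 75th percentile centring, -0.05 after quantile normalization and after cyclic loess, -0.06 without ALA replicate 2 and -0.03 without SFA replicate 2, and leaving out each array gave -0.06 to 0.09. Clec4g was -0.03 after 75th percentile centring and -0.14 without ALA replicate 1, and leaving out each array gave -0.14 to 0.30. Tek was -0.05 without SFA replicate 2, and leaving out each array gave -0.05 to 0.39. Deviations of same-numbered arrays correlated at -0.03, -0.004 and 0.02 over the tested genes. The labels do not say whether a replicate number marks a shared litter or batch, and these correlations cannot exclude one. The replicate block left the endothelial counts at 6, 6 and 0.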

Other observations

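Signals that sinusoidal endothelium sends to hepatocytes and stellate cells, and the transcription factors of endothelial identity, were measured beside the genes above and are named after their values were seen. The zonation signals Wnt2 and Rspo3 were at 0.24 and 0.60 on ALA and at -0.33 and 0.29 on SFA, and neither passed by limma. Wnt2 was lower on both SFA arrays, at 5.00 and 5.71, than on both ALA arrays, at 5.94 and 5.91. Of the iron-regulating ligand genes, Bmp6 was at -0.51 and -0.53 and Bmp2 at 0.44 and 0.66 on ALA and SFA, and neither passed. Bmp6 was 5.78 and 6.23 on Control, 5.54 and 5.44 on ALA, and 5.63 and 5.30 on SFA, so both diets were below Control. Gata4, a factor known to specify sinusoidal endothelium, was at 0.09 and 0.12, with 95% intervals of -0.29 to 0.48 and -0.27 to 0.50. Maf, another such factor, was at 0.56 and 0.04. The ETS factor genes Erg and Fli1 were at 0.46 and 0.79 on ALA and 0.39 and 0.60 on SFA without passing. Sox18 rose by 0.83 on SFA (SE 0.17, limma adjusted p = 0.0244, lost without Control replicate 2 or either SFA array) and was at 0.58 on ALA, while Sox7 was at -0.05 and 0.13.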
